A study of Mus musculus with 4 samples.

Results

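Histone H3.3 is encoded by a pair of genes in the mouse, H3f3a on chromosome 1 and H3f3b on chromosome 11, both on the minus strand. The eIF4A2 binding peaks of their transcripts were taken from the deposited list as the minus-strand peaks with a midpoint at chr1:182725000-182750000 for H3f3a or at chr11:115880000-115889000 for H3f3b, in the mouse build mm9. There were 9 such peaks among the 47777 of the list, 7 at H3f3b and 2 at H3f3a. The peaks come from eCLIP in J1 cells, a feeder-free mouse embryonic stem cell line of the 129S4/SvJae strain kept in serum with leukemia inhibitory factor and not otherwise treated before the ultraviolet light that links proteins to the RNA they touch. The series held 2 IP libraries, made with an antibody against eIF4A2, and 2 input libraries, which carry the background. All of them were biological replicates of that 1 line. For each peak the list gives the authors' log2 fold of IP over input, 1 value per peak and none per library. How the 4 libraries entered that value was not given. The spread between replicates and the depth of the libraries are therefore unknown here, no peak's fold can be given an error, and no test between the genes was made.

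H3.3 is the replication-independent variant of histone H3. It is placed into chromatin without a need for DNA replication, at active genes by the HIRA complex and at heterochromatin and telomeres by ATRX and DAXX. The replication-dependent H3 genes lack introns and their mRNAs end in a stem-loop, whereas H3f3a and H3f3b have introns and polyadenylated mRNAs. eIF4A2 is a DEAD-box RNA helicase and a paralog of eIF4A1, the helicase of the cap-binding complex that prepares mRNAs for translation. The title of the series names H3.3 transcripts among the targets of eIF4A2, and the question put to the list was how many peaks each gene carried, where they lay and how enriched they were.

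Both genes encode the same protein from coding sequences that differ at many synonymous positions. In the GENCODE M21 transcripts that match the RefSeq mRNAs (H3f3a-205 and H3f3b-201, build GRCm38), each coding sequence was 411 bases long with its stop codon and gave 136 amino acids, of which 0 differed. The coding bases were 76.9% identical. Of the 95 bases that differed, 81 lay at the third position of a codon, and 83 of the 137 codons differed. The first and the third coding exon of each gene are printed from those transcripts, 5′ to 3′, because they show how far a short read can tell the mRNAs apart. Capitals mark the bases that differ between the genes. The first coding exon lies at chr1:180811799-180811926 for H3f3a and at chr11:116023882-116024009 for H3f3b. The third lies at chr1:180803080-180803205 for H3f3a and at chr11:116023410-116023535 for H3f3b. All these positions are GRCm38, minus strand.
H3f3a, coding exon 1: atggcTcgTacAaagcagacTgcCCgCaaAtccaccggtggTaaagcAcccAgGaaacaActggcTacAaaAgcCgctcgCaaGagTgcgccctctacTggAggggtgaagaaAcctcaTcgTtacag
H3f3b, coding exon 1: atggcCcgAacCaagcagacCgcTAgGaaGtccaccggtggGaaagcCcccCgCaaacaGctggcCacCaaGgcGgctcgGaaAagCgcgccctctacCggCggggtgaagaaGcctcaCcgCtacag
H3f3a, coding exon 3: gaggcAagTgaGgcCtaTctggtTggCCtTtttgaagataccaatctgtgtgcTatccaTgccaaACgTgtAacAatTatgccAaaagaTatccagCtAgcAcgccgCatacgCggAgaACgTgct
H3f3b, coding exon 3: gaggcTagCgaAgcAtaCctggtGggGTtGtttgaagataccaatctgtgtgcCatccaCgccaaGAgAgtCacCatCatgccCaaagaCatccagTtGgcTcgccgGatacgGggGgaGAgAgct
Exon 1 differed at 25 of its 128 bases and exon 3 at 28 of its 126 bases. The second coding exon, which is not printed, differed at 42 of 154. Exon 3 held the longest run of identical letters, 23 bases, and no longer run was shared anywhere between the whole mRNAs. A sequenced read of 50 bases, the length given in the labels, could thus not match the mRNAs of both genes exactly along its whole length.

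H3f3b carried a compact group of 7 eIF4A2 peaks, all moderately enriched. Their log2 folds ran between 1.56 and 2.59, which is 2.95-fold to 6.01-fold, with a median of 1.81 (3.5-fold). The median of all peaks in the list was 1.65, and 5 of the 7 lay above it. The list holds only values above a log2 fold of 1 (2-fold), so weaker enrichment elsewhere on the transcript would not be listed. Of the 7 peaks, 3 stood at a log2 fold of 2 (4-fold) or above, or 42.9% (exact Clopper-Pearson 95% interval 9.9 to 81.6%). Over the whole list 28.3% of peaks reached it, which lies inside that interval. The interval covers counting error only, and the 7 peaks belong to 1 transcript and are not independent. None of the 7 reached a log2 fold of 3 (8-fold), and 4.03% of the list did.

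Along the H3f3b strand the most enriched peak was the last one on the 3′ side, and the widest was the first on the 5′ side. The 5′-most peak covered chr11:115885698-115885803, was 106 bases wide and had a log2 fold of 2.14. It was wider than 98.6% of all peaks, and its fold was above that of 77.2% of them. After a gap of 287 bases came a peak of 32 bases at chr11:115885379-115885410 with a log2 fold of 1.56, the lowest of the 7, above 41.9% of the list. The next 4 peaks touched end to end and filled 129 bases at chr11:115885196-115885324. Inside this block the log2 fold was 2.00 in the 5′-most 53 bases, 1.81 in the next 26, 1.60 in the next 28 and 1.75 in the 3′-most 22. Its mean weighted by width was 1.83. The last peak, 33 bases at chr11:115885061-115885093, stood 102 bases beyond the block. It had a log2 fold of 2.59 (6.01-fold), above 91.2% of the list, and 4207 peaks of the list were higher. All these distances are along the genome, with introns not taken out, so they need not be distances on the mRNA. In GRCm38 the first coding exon of H3f3b is 128 bases long, close to the 129 bases of the block. Whether the block lies on that exon was not tested. As listed, the folds followed no single slope along the strand, and the 3 highest were at both outer peaks and at the 5′ side of the block. No fold has an error here, so it cannot be said whether these differences exceed counting error or the spread between replicates.

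**Figure D1:**
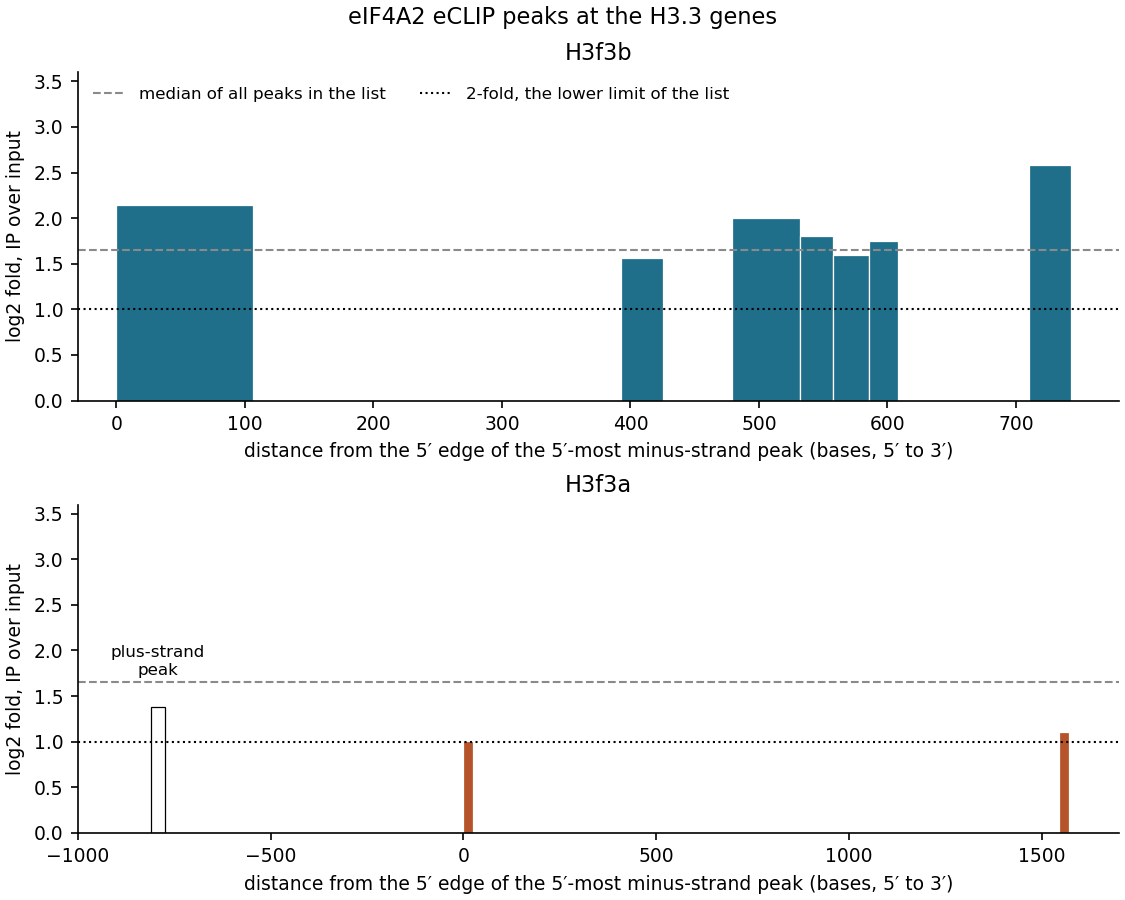
The peaks of H3f3b (upper panel) and H3f3a (lower panel) are drawn to scale, 5′ to 3′, with the distance in bases from the 5′ edge of the first minus-strand peak on the x axis and the authors' log2 fold of IP over input on the y axis. Each bar is 1 peak as wide as the peak, the open bar is the plus-strand peak beside H3f3a, the dashed line is the list's median of 1.65 and the dotted line its lower limit of 2-fold. The 7 H3f3b peaks sit within 743 bases, and both H3f3a peaks sit close to the lower limit.

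H3f3a carried 2 minus-strand peaks, both among the least enriched of the list. The 5′-most covered chr1:182743601-182743625, 25 bases, with a log2 fold of 1.01 (2.02-fold). Only 0.636% of all peaks had a lower value. The other covered chr1:182742054-182742080, 27 bases, with a log2 fold of 1.11 (2.16-fold), above 8.43% of the list. They stood 1520 bases apart, and none of the H3f3a peaks reached a log2 fold of 1.5, which 61% of the list did. The first of them would leave the list with a limit only slightly above 2-fold. The folds of the genes did not overlap: the lowest of H3f3b, 1.56, was above the higher of H3f3a, 1.11. With no value per library it cannot be said whether this difference exceeds the spread between replicates.

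**Figure D2:**
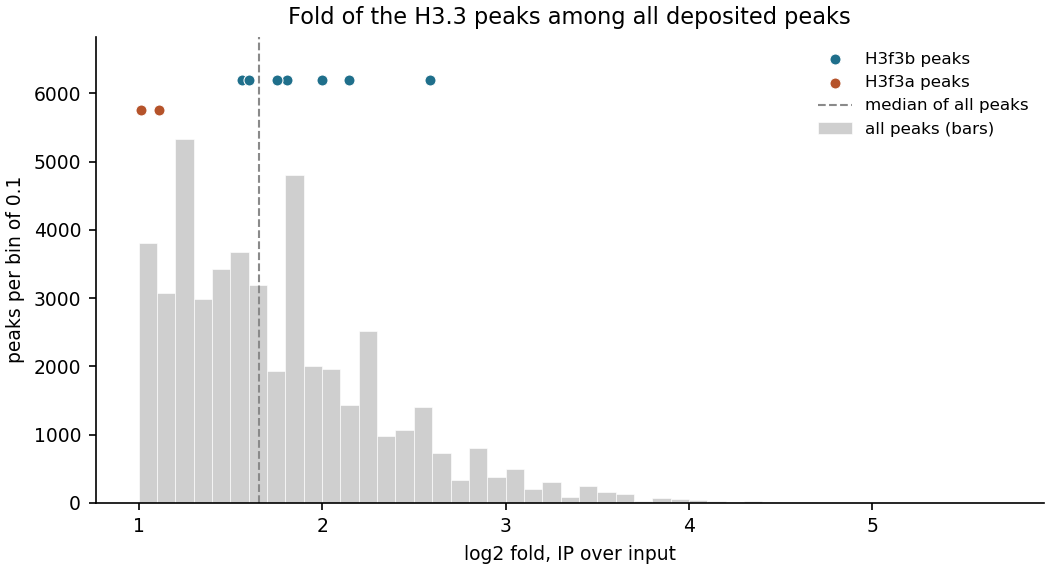
The x axis is the authors' log2 fold of IP over input and the grey bars count all 47777 peaks in bins of 0.1 (y axis). The points above the bars mark the 7 H3f3b peaks (upper row) and the 2 H3f3a peaks (lower row), with no meaning in their height, and the dashed line is the list's median of 1.65. The H3f3b points lie around the median, between 1.56 and 2.59, and the H3f3a points lie at 1.01 and 1.11, at the low end.

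The opposite strand held fewer peaks than the minus strand at both genes. The H3f3a window held 1 plus-strand peak, 38 bases at chr1:182744399-182744436 with a log2 fold of 1.38 (2.6-fold). Its fold was above those of both minus-strand peaks of H3f3a, and it lay 773 bases from the nearer of them. In GRCm38 the annotation places 2 genes on the plus strand that overlap H3f3a, the antisense gene H3f3aos and the lincRNA Gm17275. The plus-strand peak was not assigned to either, since no mm9 annotation was used here. The H3f3b window held 0 plus-strand peaks, and the nearest one lay 6.18 kb from an H3f3b peak.

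Both groups stood apart from other peaks on their strand. The nearest minus-strand peaks outside the H3f3b window were 33.5 kb away on the 3′ side and 54.8 kb away on the 5′ side. For H3f3a they were 484 kb away on the 3′ side and 179 kb away on the 5′ side. The windows are longer than the genes, which span 6.05 kb (H3f3b) and 13.1 kb (H3f3a) in the GRCm38 annotation. The count per gene did not depend on the exact edges: windows 5000 bases wider on each side or 1000 bases narrower held the same numbers, 7 and 2.

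The number of peaks per length was high at H3f3b beside the rest of the list, and that at H3f3a was common among places with any peak. The 9 kb H3f3b window held 0.778 peaks per kb. The minus strand of chromosome 11 as a whole held 0.0181 per kb up to its last peak, a length that includes regions without genes. With all chromosome strands cut end to end into windows of 9 kb, 24662 windows held a peak, and 720 of these (2.92%) held 7 or more. The 25 kb H3f3a window held 0.08 peaks per kb, and the minus strand of chromosome 1 held 0.00734. Of the 18226 windows of 25 kb with a peak, 9903 (54.3%) held at least 2. Over all windows, with or without a peak, the shares were 0.123% of 585078 for H3f3b and 4.7% of 210644 for H3f3a. Touching peaks were counted apart, at H3f3b as in the list, and no share was computed after merging. These shares are descriptions, since the windows were drawn around genes and abundance of the transcript was not measured here.

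The H3f3b peaks formed a shorter chain than most chains with as many peaks, with a median fold close to theirs. Peaks up to 1000 bases apart on a strand were joined into a stretch, which gave 31595 stretches. The H3f3b stretch of 7 peaks spanned 743 bases, and 440 stretches (1.39%) held 7 peaks or more. On the minus strand of chromosome 11 alone, 20 of 1388 stretches held more than 7. Exactly 7 peaks were held by 127 stretches, with a median span of 1183 bases and an interquartile range of 808 to 1820, and 22 of them were shorter than that of H3f3b. Peaks covered 40.4% of the H3f3b stretch, against a median of 26.4% (13.9 to 44.1%) over the 127. The median log2 fold of the H3f3b stretch, 1.81, lay beside a median of 1.82 (1.57 to 2.11) over the 127. At this joining distance each H3f3a peak was a stretch of its own, as were 24017 of the 31595. The median log2 fold of such single peaks was 1.60, and 9.53% of them lay below the higher H3f3a value.

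**Figure D3:**
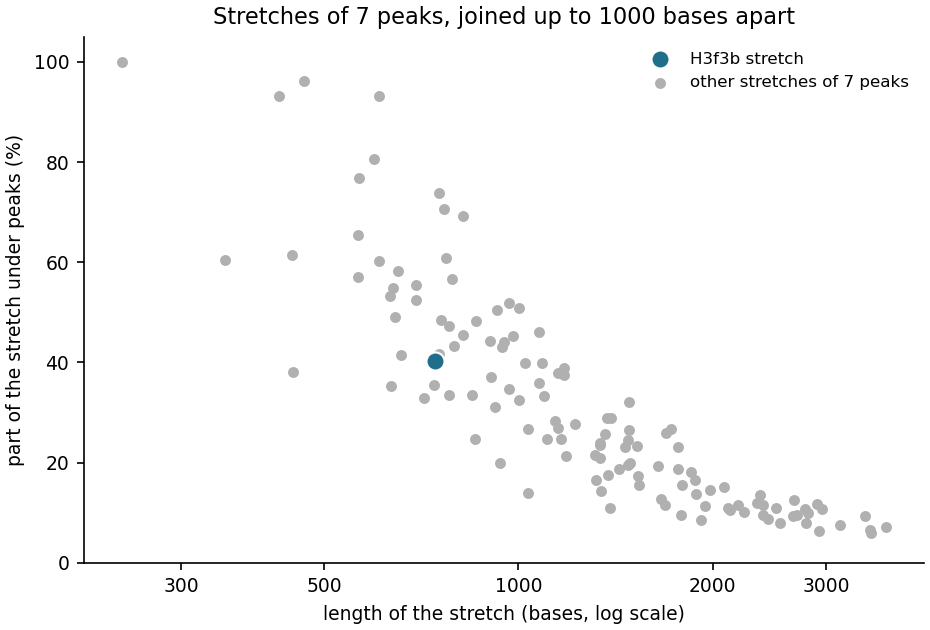
Each point is 1 of the 127 stretches of exactly 7 peaks, with its length in bases on a log scale (x axis) and the percentage of it covered by peaks (y axis). The large point is the H3f3b stretch, which at 743 bases and 40.4% lies at the short side of the cloud and above its median coverage of 26.4%.

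End-to-end contact between peaks was uncommon in the list as a whole. In all, 3242 peaks (6.79%) touched a neighbour, and 90 blocks held 4 or more touching peaks, the H3f3b block among them. How the peak caller splits a continuous signal was not stated, so the 7 intervals may not be 7 separate contacts of the protein. With peaks up to 50 bases apart merged, H3f3b had 4 peaks and H3f3a still had 2. The gap between the H3f3b block and the 32-base peak on its 5′ side was 54 bases, just above this distance.

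The mRNAs differed in how much of their sequence also occurs in other genes, which bears on where a read of 50 bases can be placed. H3f3a has many processed pseudogenes, copies of its mRNA inserted elsewhere in the genome. Of the 2792 runs of 50 bases in the H3f3a mRNA, 16.4% occurred letter for letter, on either strand, in an annotated transcript of a gene outside its locus. Of the 1944 runs in the H3f3b mRNA, 10.6% did. In the coding sequence, 336 of 362 runs (92.8%) of H3f3a and 168 of 362 runs (46.4%) of H3f3b were shared. A single run of H3f3a was found in as many as 16 other genes, and one of H3f3b in at most 2. In the 3′ untranslated region 117 of 2196 runs (5.33%) of H3f3a and 0 of 1397 runs of H3f3b were shared. The H3f3a runs recurred in 40 genes, of which 38 were annotated as pseudogenes, with H3f3c sharing the most, 245 runs. The H3f3b runs recurred in 3 genes, of which 2 were pseudogenes. Only exact matches to annotated transcripts were counted, so copies in the genome, or parts of copies, that lie outside an annotated transcript are missed. Each run was counted alone, whereas the labels give paired-end sequencing, so these shares are not shares of reads or read pairs. How reads with several matches were treated was not stated in the labels. The gene with the smaller and weaker set of peaks, H3f3a, had the larger shared part of its coding sequence and, by less, of its whole mRNA. In the 5′ untranslated region 0 of 136 runs of H3f3a and 4 of 87 runs of H3f3b were shared. Whether any peak lies in a shared part was not analysed, and the part of such sharing in the result was not tested.

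**Figure D4:**
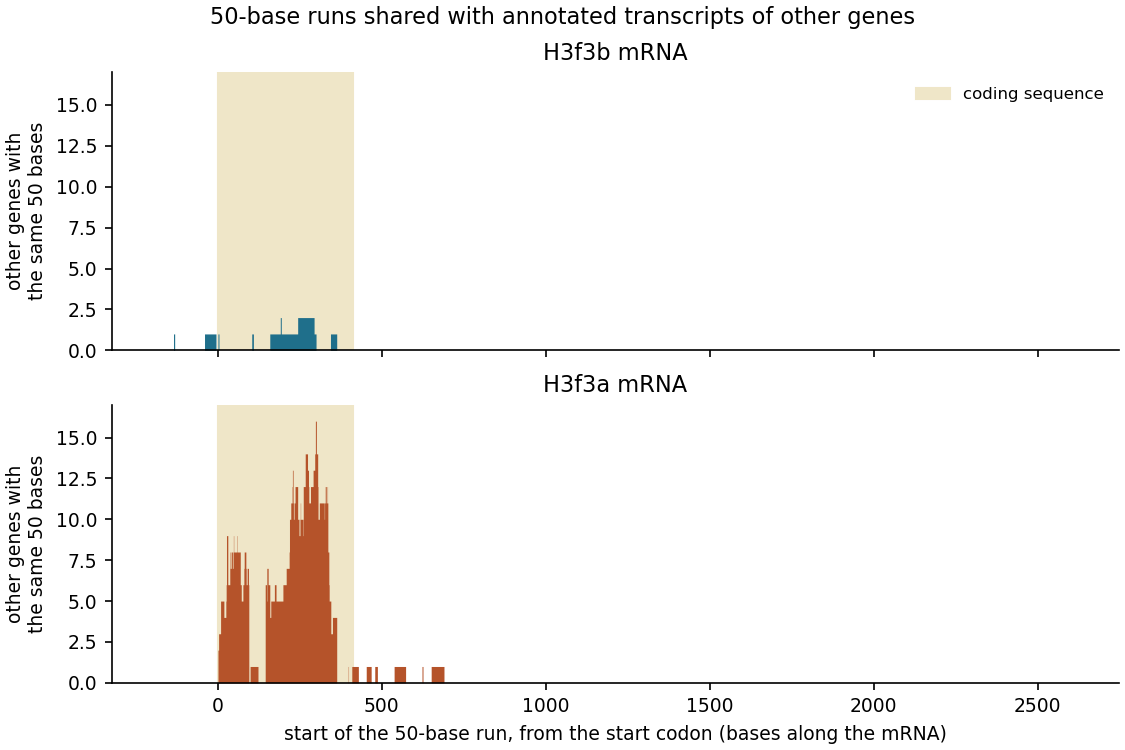
For each run of 50 bases the number of other genes with the same letters in an annotated transcript (y axis) is plotted at the start of the run along the mRNA, in bases from the start codon (x axis), for H3f3b (upper panel) and H3f3a (lower panel), with the coding sequence shaded. In H3f3a nearly the whole coding sequence is shared, with up to 16 other genes, and in H3f3b parts of it are shared with at most 2.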

How the data were processed

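eCLIP of eIF4A2 in J1 cells was deposited as 1 peak list for 2 IP and 2 input libraries. The submitters' processing notes name cutadapt 1.18 and STAR 2.6.1b as tools and mm9 as the build. Not given in the sources used here are the peak caller, a significance limit, the treatment of reads with several matches, and how replicates were joined. Fold values are log2 of IP over input, calculated by the authors. No header states this scale, which was inferred from the values and the eCLIP protocol. Starts were changed to count from 1.

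The members, the windows and the measures were chosen with earlier results of these data known. By the rule for named features, all peaks of both genes were given by position. Percentiles are the share of all peaks with a lower value. Alternatives were fold limits, overlap rules, merging, a minimum width, strand and window edges. Stretch joining, merging and the whole-number ratios were tested on simulated data. Sequences came from GENCODE M21 (GRCm38), and no coordinates were converted between builds. Where the peaks lie relative to exons, the letters under the peaks, and other genes of H3.3 deposition were not analysed here, because they need an mm9 annotation or genome. Scripts ran in Python 3.11.15 (pandas 2.3.3, numpy 2.4.6, scipy 1.17.1, matplotlib 3.10.9). No test was run.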

Additional observations from a re-analysis of the deposited data

How the results depend on the processing

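Of 31 alternative values, 20 stayed within the set range (a factor of 1.5 for counts and counts per kb, no change for medians) and 11 moved. A limit of 2 on the log2 fold left 0 peaks at H3f3a (0 per kb) and 3 at H3f3b (0.333 per kb), and a limit of 1.5 left 0 at H3f3a and all 7 at H3f3b. Merging peaks within 50 bases left 4 at H3f3b (0.444 per kb) and raised their median log2 fold to 2.07, since the highest value of each merged group was kept. Counting both strands gave H3f3a 3 peaks, a count at the edge of the set range, and a median of 1.11. Dividing by the span from the first to the last peak gave 9.42 peaks per kb at H3f3b and 1.27 at H3f3a. Any overlap with the window, whole peaks in it, a minimum width of 20 bases and the other window edges changed neither count. A median for H3f3a at a limit of 1.5 could not be had, because no peak was left. No paired analysis was possible because each peak has 1 value and none per library, which also prevents leaving out a replicate. Limits set by sequencing depth could not be assessed, since the list holds no counts.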

Other observations

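The folds of most H3.3 peaks were ratios with larger denominators than most of the list. Once a shared log2 constant of 0.24 was removed, 99.96% of all peaks had a fold equal to a ratio of whole numbers whose denominator was 200 or less (relative tolerance 1e-07), and for 75.6% of peaks the denominator was 10 or less. Of the 9 H3.3 peaks, 2 had a denominator up to 10 and 6 had one of at least 20, a size found at 10.6% of the list. The H3f3a values were the ratios 41 to 24 (log2 fold 1.01) and 42 to 23 (log2 fold 1.11). The 106-base peak of H3f3b had the ratio 131 to 35, a value no other peak of the list had. The most enriched H3f3b peak had 56 to 11, and the least enriched had 5 to 2, a value given for 1777 peaks. The plus-strand peak beside H3f3a had 11 to 5. The constant was read from the values, and the counts behind a reduced ratio remain unknown, so no error was derived from these ratios. Peaks of the list with a denominator of at least 20 had a median log2 fold of 1.44, below the 1.65 of the whole list.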
